A study of Homo sapiens with 5 samples.

Results

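The glycosyltransferases that extend, branch and cap glycan chains were followed across 5 RNA sequencing libraries of the human embryonic stem cell line H9. Members were taken by gene symbol from 13 enzyme families (B3GALT, B4GALT, B3GNT, B4GALNT, GALNT, GCNT, MGAT, ST3GAL, ST6GAL, ST6GALNAC, ST8SIA, FUT and POFUT). The pattern matched 88 rows, and 9 genes of globo-series and ganglioside synthesis and of the H antigen (B3GALT4, B3GALT5, B4GALNT1, ST3GAL2, ST3GAL5, ST8SIA1, ST8SIA5, FUT1 and FUT2) were set aside by name. That left 79 members of the 26506 genes in the table. The rule reads gene symbols and no expression value.

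The libraries were B3GALT5-KO cells (genotype B3GALT5-/-) in 2iLAF, WT cells in 5iLAF, WT cells in 2iLAF, B3GALT5-KO cells in basal medium and WT cells in basal medium, 1 library each. Basal medium maintains the primed state of pluripotency. 5iLAF combines inhibitors of several kinases with growth factors and serves to reset primed cells to a naive-like state, and 2iLAF is the form with fewer inhibitors. The labels call the B3GALT5-KO 2iLAF and WT 5iLAF libraries naive, the WT 2iLAF library primed-naive and both basal libraries primed. Whether the knockout cells are 1 clone is not given in the sources used here. With 1 library per group, no difference below has a replicate check, no test was possible and no p-value is given. Values are in TPM, an abundance that sums to 1000000 in each library, and are a level per transcript length, so levels can be set side by side between genes. Read depth is unknown, and a value of 0 may be a failed estimate, so such genes are only said to be listed at 0.

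B3GALT5, the targeted gene and no member here, was at 1.17 TPM in B3GALT5-KO 2iLAF, 2.08 TPM in WT 5iLAF, 5.13 TPM in WT 2iLAF, 5.98 TPM in B3GALT5-KO basal and 9.31 TPM in WT basal. The edited part of the gene is not given, so the transcript level does not check the knockout. All 8 core pluripotency markers were at or above 1 TPM in every library, and the 10 naive markers summed to 95.0 TPM in B3GALT5-KO 2iLAF and 116 in WT 5iLAF against 11.4 to 30.5 elsewhere. DNMT3L alone gave 51.4 TPM of that sum in B3GALT5-KO 2iLAF and 76.4 in WT 5iLAF, KLF4 was highest in WT 2iLAF (20.5 TPM), and TFCP2L1 lay between 1.38 and 2.77 TPM. KLF5 stood at 16.1 TPM in B3GALT5-KO 2iLAF and 9.74 in WT 5iLAF against 1.19 to 1.90 elsewhere. SUSD2 (15.4 and 14.8 TPM against 3.22 to 4.85) and DPPA3 (3.21 and 4.10 against 0.79 to 2.15) were also higher there. The B3GALT5-KO 2iLAF and WT 2iLAF libraries listed KLF17, DPPA5, ARGFX and ZNF729, which define the naive state, at 0. WT 5iLAF held at most 0.20 TPM of each. The 6 primed markers summed to 543 TPM in B3GALT5-KO 2iLAF and 496 in WT 5iLAF against 1595 to 3267 elsewhere, although DUSP6 was lowest in WT 2iLAF (1.24 TPM). Other cell type markers differed between libraries. The 7 fibroblast and mesenchyme markers summed to 5991 TPM in B3GALT5-KO 2iLAF (7 of 7 at or above 1 TPM) and 2018 in WT 5iLAF (6 of 7), and to between 71.8 and 144 in the other 3 libraries, where DCN was listed at 0. The 8 primitive streak and endoderm markers summed to 1334 TPM in B3GALT5-KO 2iLAF and 2416 in WT 5iLAF, with 8 of 8 at or above 1 TPM in each, and to at most 8.13 elsewhere. The 7 neutrophil markers summed to 1042 TPM in B3GALT5-KO 2iLAF (7 of 7) and to at most 10.1 elsewhere (1 or 2 of 7), with S100A8 and ELANE listed at 0 in the other 4 libraries. The 7 erythroid markers summed to 220.1 TPM in B3GALT5-KO 2iLAF and 219 in WT basal against at most 12.2 elsewhere. The 6 neuroectoderm markers summed to 627 TPM in WT 2iLAF (4 of 6) against at most 40.8 elsewhere. OTX2 gave 421 TPM of that sum, LHX5, SIX3 and FEZF1 lay between 20.1 and 96.6 TPM, and PAX6 and SOX1 were at 0.27 TPM each. The 6 trophoblast markers summed to 51.0 TPM in WT 2iLAF against 8.72 to 10.8 elsewhere. KRT7 (27.0 TPM), TFAP2A (17.3 TPM) and GATA3 (6.70 TPM) gave that sum, and CGA, CGB5 and ELF5 were listed at 0 in WT 2iLAF. At or above 1 TPM were 3 of 6 in WT 2iLAF, as in B3GALT5-KO 2iLAF and WT 5iLAF. In a bulk library, fewer cells of a type and less RNA per cell cannot be told apart.

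Glycans on proteins are built in the secretory pathway by enzymes that each add 1 sugar in 1 linkage. Mucin-type O-glycans start with GalNAc, placed by the GALNT enzymes. N-glycans are transferred as a block, trimmed, and then branched by MGAT enzymes. Chains are lengthened by alternating GlcNAc and galactose, which gives lactosamine repeats, and are ended by sialic acid, fucose, GalNAc or sulfate. Most steps are shared by several isoenzymes with different acceptor preferences. The end sugars form stage-specific surface antigens of embryonic cells, and O-fucose with its extensions tunes Notch receptors.

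Of the 79 members, 66 reached 1 TPM in at least 1 library and entered the comparisons, 42 reached 10 TPM in at least 1 library and 24 were at or above 10 TPM in all 5. The 13 members below 1 TPM throughout were B3GALT2, B3GNT6, B4GALNT2, FUT3, FUT5, FUT6, FUT7, GALNT9, GALNT15, GCNT3, GCNT7, MGAT4D and ST6GALNAC1, none above 0.77 TPM. GCNT7 and MGAT4D were listed at 0 in all 5 libraries. Members together summed to 1547 TPM in B3GALT5-KO 2iLAF, 1306 in WT 5iLAF, 1167 in WT 2iLAF, 1354 in B3GALT5-KO basal and 1274 in WT basal. The 10 most abundant members made up between 51.6% and 52.6% of that sum in each library. The leading member was GALNT1 in B3GALT5-KO 2iLAF (128 TPM), ST6GAL1 in WT 5iLAF (100.02 TPM), B4GALT2 in WT 2iLAF (105 TPM), and ST6GAL1 in B3GALT5-KO basal (113 TPM) and WT basal (92.8 TPM).

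**Figure D1:**
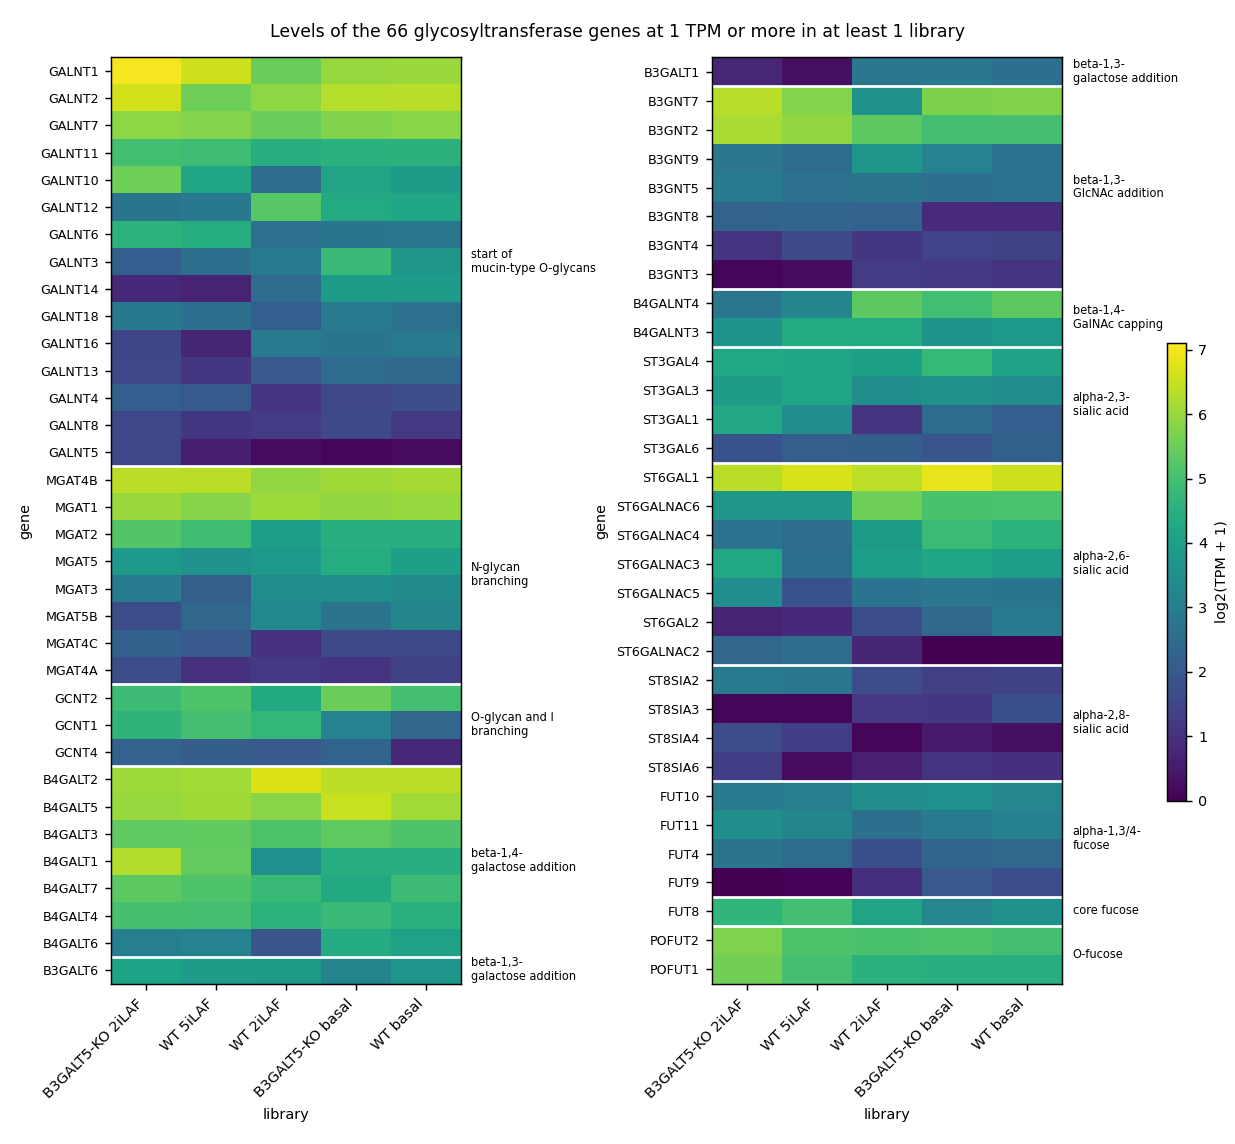
Heat map of log2(TPM + 1) for the 66 members at 1 TPM or more in at least 1 library (rows, grouped by enzyme role and sorted by mean level) in the 5 libraries (columns, 1 library each). B3GALT5-KO 2iLAF and WT 5iLAF have a median absolute difference of 0.27 on the log2 scale over these members. The same measure over all 15761 tested genes is 0.18. WT 2iLAF holds the highest value for GALNT12 and the lowest for GALNT10, B4GALT1 and B3GNT7. For GALNT10 and B4GALT1, B3GALT5-KO 2iLAF also stands apart, at 45.7 and 76.2 TPM.

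Libraries were compared in pairs as log2((TPM + 1)/(TPM + 1)), and a size rule of at least 1 on that scale, a 2-fold difference, decided which members count as higher or lower. Of the 66 tested members, 40 passed this size rule in at least 1 of 6 comparisons (60.6%) and 26 in none, against 42.5% of all 15761 tested genes past it in at least 1. In 9 members the 5 values spanned less than 1.5-fold: B3GNT5, B4GALT3, B4GALT4, GALNT7, GALNT11, MGAT1, MGAT4B, ST3GAL6 and ST6GAL1. Of the 6 comparisons, 3 share the WT basal library and 3 share the B3GALT5-KO 2iLAF library, so they are not independent of each other.

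In basal medium the genotypes were close over these genes. In B3GALT5-KO basal against WT basal, 2 of 66 members (3.03%) were higher, where 0.704% of all 15761 tested genes were higher. There were 0 lower members, where 1.05% of all genes were lower. The 2 were GCNT4, a core 2 branching enzyme, at 3.84 TPM in B3GALT5-KO and 0.74 TPM in WT (log2 ratio 1.48), and GALNT3, an O-glycan initiating enzyme that acts on FGF23, with 27.2 TPM in B3GALT5-KO and 12.5 TPM in WT (log2 ratio 1.07). The median log2 ratio was 0.03 over the tested members and -0.06 over all genes. Both calls are lost with a pseudocount of 5. Next in size were GCNT1 (log2 ratio 0.79) and ST3GAL4 (0.65), both inside the size rule. On the lower side ST8SIA3 and B4GALT7 had log2 ratios of -0.57 and -0.56.

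WT cells in 2iLAF differed from WT basal in 11 members. Of 66 members, 5 were higher (7.58%, against 4.73% of all genes) and 6 lower (9.09%, against 7.02% of all genes). The higher members were GCNT1, B3GNT8, GCNT4, GALNT12 and B3GNT9, and the lower ones B4GALT6, B3GNT7, GALNT14, GALNT10, ST6GAL2 and ST3GAL1. The median log2 ratio was -0.08 over members and -0.13 over all genes. Median-ratio scaling, which shifts the median of all genes by 0.13, turned the members' median to 0.08 and gave 5 higher and 5 lower, with ST3GAL1 at -0.92, inside the size rule. FPKM values put GCNT4, ST3GAL1 and ST6GAL2 inside it. The neuroectoderm and trophoblast sums were highest in this library, as given above, and their part in these values was not tested.

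WT cells in 5iLAF differed from WT basal in 23 members. Of 66 members, 9 were higher (10.7% of all genes) and 14 lower (11.4% of all genes), with a median log2 ratio of 0.04 over members and -0.06 over all genes. The members' shares were 13.6% on the higher side and 21.2% on the lower side. The highest ratios were those of GCNT1, ST6GALNAC2, GALNT6 and B3GNT8, and the lowest those of GALNT14, B3GALT1, GALNT16 and ST6GAL2. With a pseudocount of 5 the counts were 3 and 6. FPKM values put GALNT13, GCNT4 and ST8SIA4 inside the size rule. Mesenchyme and primitive streak markers stood higher in WT 5iLAF than in WT basal by the sums given above, and their part in these values was not tested.

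B3GALT5-KO cells in 2iLAF differed from B3GALT5-KO basal in 28 members. Of 66 members, 14 were higher (21.2%, against 15.9% of all genes) and 14 lower (21.2%, against 11.8% of all genes). The median log2 ratio was 0.11 over members and 0.02 over all genes. ST6GALNAC2, B4GALT1, GALNT6 and ST3GAL1 had the highest ratios, and GALNT14, GALNT3, B4GALNT4 and ST6GALNAC4 the lowest. A pseudocount of 5 gave 7 higher and 6 lower. FPKM values put 8 of the 28 inside the size rule: GALNT1, POFUT1, B3GNT8, GALNT5, ST8SIA4, B3GNT3, MGAT5B and ST8SIA3. FUT7, which completes sialyl Lewis x in leukocytes, stayed below 1 TPM and entered no comparison. It was listed at 0 in the other 4 libraries and stood at 0.31 TPM in B3GALT5-KO 2iLAF. B3GALT2, also below 1 TPM, had the same pattern, at 0.24 TPM in this library, which held 1042 TPM of neutrophil markers. Against B3GALT5-KO basal, that library also held 5991 against 91.2 TPM of mesenchyme markers, 1334 against 5.37 TPM of primitive streak and endoderm markers and 220.1 against 3.30 TPM of erythroid markers. The part of these 4 marker lists in the members' values was not tested.

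Within 2iLAF the genotypes differed in 26 members. In B3GALT5-KO 2iLAF against WT 2iLAF, 15 of 66 members were higher (22.7%, against 16.6% of all genes). Lower were 11 (16.7%, against 10.8% of all genes). The median log2 ratio was 0.28 over members and 0.10 over all genes. The highest ratios were ST3GAL1, GALNT10, B4GALT1 and B3GNT7, and the lowest B4GALNT4, GALNT12, B3GALT1 and ST6GALNAC6. A pseudocount of 5 gave 7 higher and 3 lower, and FPKM gave 8 higher, without ST8SIA2, ST8SIA4, GALNT4, GALNT5, MGAT4C, POFUT1 and B4GALT6. On the lower side FPKM put B3GNT3, ST6GAL2 and ST8SIA3 inside the size rule. Genotype is not the only thing that differs here, since the labels give these libraries different states and the marker sums above differ, so genotype and state cannot be told apart.

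The libraries labelled naive were close to each other. The median log2 ratio of B3GALT5-KO 2iLAF against WT 5iLAF was 0.16 over members and 0.00 over all genes. In this comparison 5 of 66 members were higher (7.58%, against 4.9% of all genes) and 0 lower (1.03% of all genes). The 5 were ST6GALNAC5, ST6GALNAC3, GALNT10, GALNT2 and ST8SIA6, the last of them inside the size rule with FPKM. Across the 66 members, log2(TPM + 1) correlated at 0.966 between B3GALT5-KO 2iLAF and WT 5iLAF and at 0.979 between B3GALT5-KO basal and WT basal (Pearson). The other 8 pairs lay between 0.779, for B3GALT5-KO 2iLAF with WT 2iLAF, and 0.913, for WT 2iLAF with WT basal. These are correlations across genes of single libraries and describe them only. Over all 15761 genes the same pairs gave 0.970, 0.987, 0.856 and 0.946. In 26 members (39.4%) both libraries labelled naive stood above the other 3, and in 18 members (27.3%) below them, against 29.3% and 26.9% of all tested genes.

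Sums over enzyme roles below hold the members only, so they leave out the genes set aside by name.

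**Figure D2:**
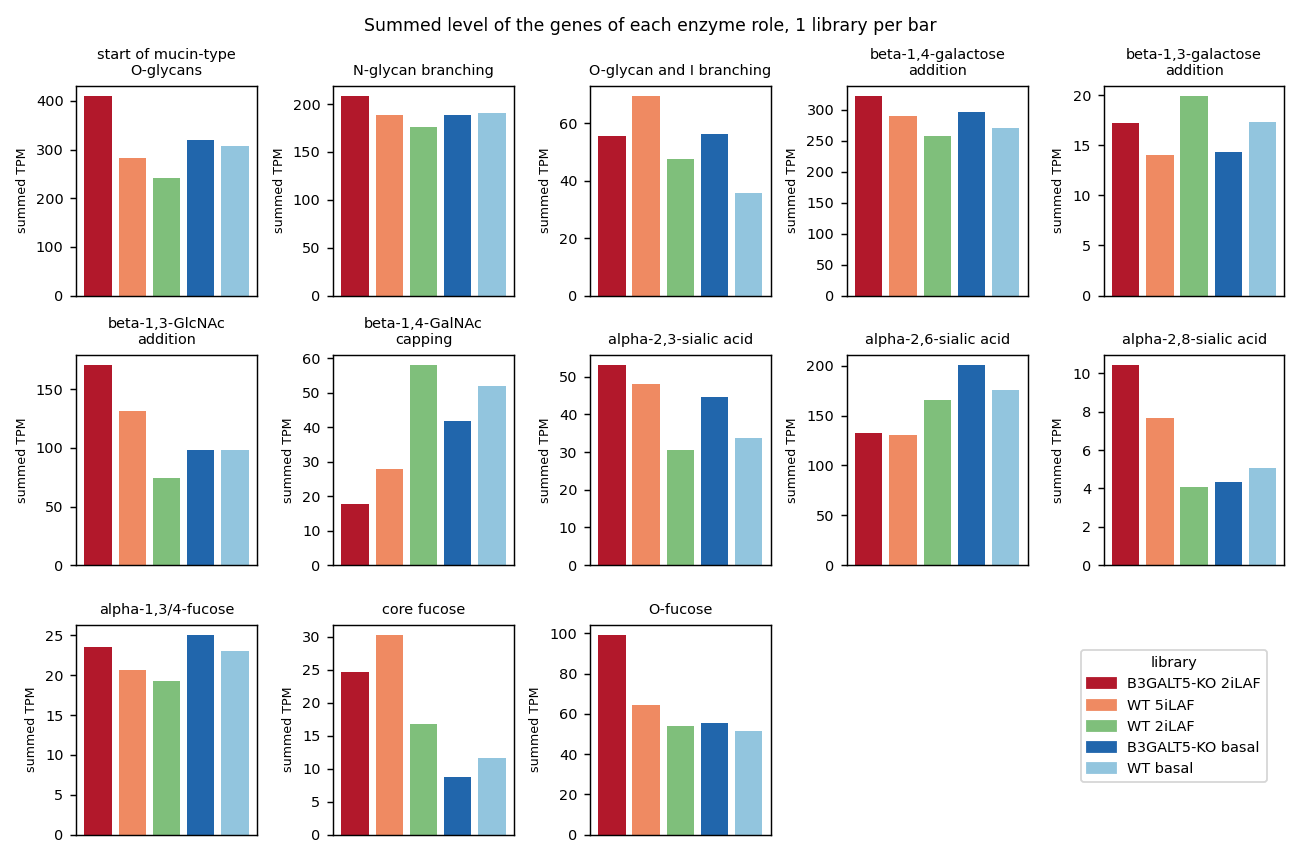
Summed TPM of the members of each of 13 enzyme roles, 1 bar per library, with separate vertical axes that start at 0. N-glycan branching and beta-1,4-galactose addition stay close across libraries, whereas beta-1,4-GalNAc capping runs from 17.8 TPM in B3GALT5-KO 2iLAF to 58.0 TPM in WT 2iLAF.

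The 17 enzymes that start mucin-type O-glycans summed to 411 TPM in B3GALT5-KO 2iLAF, 282 in WT 5iLAF, 242 in WT 2iLAF, 320.4 in B3GALT5-KO basal and 307 in WT basal. GALNT1 and GALNT2, the broadly expressed initiating enzymes, led in all libraries together with GALNT7, which prefers peptides that already carry GalNAc. GALNT1 stood at 128 TPM in B3GALT5-KO 2iLAF, 92.5 in WT 5iLAF, 44.5 in WT 2iLAF, 62.9 in B3GALT5-KO basal and 64.9 in WT basal. It was above the size rule in B3GALT5-KO 2iLAF against both B3GALT5-KO basal (log2 ratio 1.02, and 0.93 with FPKM) and WT 2iLAF (1.51). GALNT2 stood at 97.3 TPM in B3GALT5-KO 2iLAF, 45.5 in WT 5iLAF, 57.9 in WT 2iLAF, 77.9 in B3GALT5-KO basal and 79.2 in WT basal, so WT 5iLAF held the lowest value and B3GALT5-KO 2iLAF the highest. GALNT7 was steady, at 59.0 TPM in B3GALT5-KO 2iLAF, 54.4 in WT 5iLAF, 44.0 in WT 2iLAF, 53.5 in B3GALT5-KO basal and 56.1 in WT basal, and so was GALNT11, which glycosylates NOTCH1, at 30.0 TPM in B3GALT5-KO 2iLAF, 28.6 in WT 5iLAF, 21.3 in WT 2iLAF, 22.2 in B3GALT5-KO basal and 22.7 in WT basal.

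In 5 isoenzymes of this group (GALNT3, GALNT12, GALNT13, GALNT14 and GALNT16) both libraries labelled naive stood below the other 3. In GALNT12, GALNT14 and GALNT16 they did so by a log2 ratio of at least 1. Of the 66 tested members, 27.3% stood below in this way, and 12.1% by that ratio. Of all tested genes, 26.9% and 4.17% did. GALNT14 stood at 0.77 TPM in B3GALT5-KO 2iLAF, 0.62 in WT 5iLAF, 4.56 in WT 2iLAF, 13.5 in B3GALT5-KO basal and 13.9 in WT basal, a log2 ratio of -3.20 in WT 5iLAF and -1.43 in WT 2iLAF, each against WT basal, and of -3.04 in B3GALT5-KO 2iLAF against B3GALT5-KO basal. GALNT16, its close paralogue, stood at 1.81 TPM in B3GALT5-KO 2iLAF, 0.65 in WT 5iLAF, 6.76 in WT 2iLAF, 5.73 in B3GALT5-KO basal and 6.75 in WT basal, and was not lower in WT 2iLAF. GALNT3 was at 3.38 TPM in B3GALT5-KO 2iLAF, 5.11 in WT 5iLAF, 6.46 in WT 2iLAF, 27.2 in B3GALT5-KO basal and 12.5 in WT basal, with the highest value in B3GALT5-KO basal. GALNT13, a paralogue of GALNT1, stood at 1.91 TPM in B3GALT5-KO 2iLAF, 1.17 in WT 5iLAF, 2.98 in WT 2iLAF, 4.60 in B3GALT5-KO basal and 4.19 in WT basal, past the size rule in WT 5iLAF against WT basal alone (log2 ratio -1.26).

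In the other direction, GALNT6, the paralogue of GALNT3, stood at 23.0 TPM in B3GALT5-KO 2iLAF, 20.0 in WT 5iLAF, 5.23 in WT 2iLAF, 5.77 in B3GALT5-KO basal and 6.23 in WT basal. Both libraries labelled naive thus held more than 3 times the level of any other library. GALNT5 stood at 1.90 TPM in B3GALT5-KO 2iLAF, 0.50 in WT 5iLAF, 0.18 in WT 2iLAF, 0.07 in B3GALT5-KO basal and 0.15 in WT basal, and passed the size rule in B3GALT5-KO 2iLAF against B3GALT5-KO basal and against WT 2iLAF. GALNT4, whose reads overlap those of the read-through gene POC1B-GALNT4 and are uncertain, stood at 3.39 TPM in B3GALT5-KO 2iLAF, 3.04 in WT 5iLAF, 1.15 in WT 2iLAF, 1.92 in B3GALT5-KO basal and 2.26 in WT basal. GALNT8 and GALNT18 passed the size rule in no comparison and lay between 1.20 and 6.76 TPM.

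GALNT10 and GALNT12, which act on peptides already carrying GalNAc, differed from basal medium in opposite directions in B3GALT5-KO 2iLAF and WT 2iLAF, libraries that differ in labelled state as well as genotype. GALNT10 stood at 45.7 TPM in B3GALT5-KO 2iLAF, 17.1 in WT 5iLAF, 4.73 in WT 2iLAF, 16.6 in B3GALT5-KO basal and 14.1 in WT basal. GALNT12 stood at 5.81 TPM in B3GALT5-KO 2iLAF, 6.26 in WT 5iLAF, 37.3 in WT 2iLAF, 19.3 in B3GALT5-KO basal and 17.2 in WT basal, so it was low in both libraries labelled naive. In B3GALT5-KO cells GALNT10 was higher and GALNT12 lower in 2iLAF than in basal medium (log2 ratios 1.41 and -1.58), whereas in WT cells GALNT10 was lower and GALNT12 higher (-1.39 and 1.07). The promoters of the pair, from 250 bases before to 50 bases after the gene start, are shown because these are the O-glycan initiating genes with opposite medium changes. The sequences are RefSeq's, on GRCh38.p14, in the direction of transcription, and capitals mark GGGCGG or its reverse complement CCGCCC, the core of the GC box. GALNT10 lies on the plus strand at chr5:154190483-154190782 and GALNT12 on the plus strand at chr9:98807420-98807719.
GALNT10: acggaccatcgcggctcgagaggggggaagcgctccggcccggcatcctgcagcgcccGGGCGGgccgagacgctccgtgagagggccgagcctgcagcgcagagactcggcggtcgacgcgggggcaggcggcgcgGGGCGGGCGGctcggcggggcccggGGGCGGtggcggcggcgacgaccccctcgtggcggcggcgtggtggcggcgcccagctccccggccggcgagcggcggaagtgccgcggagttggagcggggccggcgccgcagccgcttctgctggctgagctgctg
GALNT12: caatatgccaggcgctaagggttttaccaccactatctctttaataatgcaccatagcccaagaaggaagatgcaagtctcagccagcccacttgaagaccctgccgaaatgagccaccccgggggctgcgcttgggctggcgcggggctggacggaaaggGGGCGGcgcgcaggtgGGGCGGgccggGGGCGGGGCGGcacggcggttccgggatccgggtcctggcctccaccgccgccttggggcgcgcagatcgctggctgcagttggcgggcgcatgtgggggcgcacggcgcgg
Each window held 4 copies of the motif on either strand, counting overlapping copies, and neither held TATAAA or its reverse complement TTTATA. Of all 27303 RefSeq promoter windows of 300 bases, 44.6% held GGGCGG on either strand and 12.0% held TATAAA. The GC content was 81.0% for GALNT10 and 68.7% for GALNT12, with 51 and 29 CpG sites. These are descriptions of the letters in the window. Promoter windows were found for 58 of the 79 members, too few to compare base composition over the set.

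Among the 7 beta-1,4-galactosyltransferases, B4GALT1 and B4GALT6 passed the size rule. The 7 summed to 323 TPM in B3GALT5-KO 2iLAF, 291 in WT 5iLAF, 259 in WT 2iLAF, 296 in B3GALT5-KO basal and 271 in WT basal. B4GALT1, which makes lactosamine on most glycoproteins, stood at 76.2 TPM in B3GALT5-KO 2iLAF, 41.2 in WT 5iLAF, 10.8 in WT 2iLAF, 20.6 in B3GALT5-KO basal and 21.0 in WT basal. It made up 23.6% of the group sum in B3GALT5-KO 2iLAF and 4.16% in WT 2iLAF, and was called higher in B3GALT5-KO 2iLAF against B3GALT5-KO basal (log2 ratio 1.83) and against WT 2iLAF (2.72). Its ratio in WT 2iLAF against WT basal was -0.90 and in WT 5iLAF against WT basal 0.94, inside the size rule, although the 5iLAF ratio was 1.02 with either scaling. B4GALT2, a second lactosamine enzyme, ran the other way, at 66.0 TPM in B3GALT5-KO 2iLAF, 69.0 in WT 5iLAF, 105 in WT 2iLAF, 81.9 in B3GALT5-KO basal and 82.1 in WT basal, without passing the size rule. B4GALT6, a lactosylceramide synthase, stood at 7.43 TPM in B3GALT5-KO 2iLAF, 7.85 in WT 5iLAF, 2.64 in WT 2iLAF, 19.6 in B3GALT5-KO basal and 15.6 in WT basal, and was lower in WT 2iLAF against WT basal (log2 ratio -2.19) and in B3GALT5-KO 2iLAF against B3GALT5-KO basal (-1.29). B4GALT5, which has the same activity, stood at 63.5 TPM in B3GALT5-KO 2iLAF, 67.6 in WT 5iLAF, 56.7 in WT 2iLAF, 89.1 in B3GALT5-KO basal and 68.9 in WT basal, inside the size rule in all 6 comparisons. B4GALT3 was at 39.8 TPM in B3GALT5-KO 2iLAF, 40.1 in WT 5iLAF, 33.9 in WT 2iLAF, 39.5 in B3GALT5-KO basal and 34.3 in WT basal, and B4GALT4 at 31.7 TPM in B3GALT5-KO 2iLAF, 31.1 in WT 5iLAF, 22.9 in WT 2iLAF, 26.9 in B3GALT5-KO basal and 21.6 in WT basal. These lactosamine enzymes spanned less than 1.5-fold. B4GALT7, which adds the first galactose of the proteoglycan linker, stood at 38.4 TPM in B3GALT5-KO 2iLAF, 34.1 in WT 5iLAF, 27.1 in WT 2iLAF, 18.7 in B3GALT5-KO basal and 28.1 in WT basal, and lay just inside the size rule in B3GALT5-KO 2iLAF against B3GALT5-KO basal (log2 ratio 1.00 after rounding, and 1.02 with either scaling). B3GALT6, which adds the next galactose, was at 16.3 TPM in B3GALT5-KO 2iLAF, 13.9 in WT 5iLAF, 13.7 in WT 2iLAF, 8.25 in B3GALT5-KO basal and 12.3 in WT basal, also inside the size rule in that comparison (0.90).

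B3GALT1, which builds type 1 chains and belongs to the same family as the disrupted gene, stood at 0.69 TPM in B3GALT5-KO 2iLAF, 0.22 in WT 5iLAF, 6.23 in WT 2iLAF, 6.06 in B3GALT5-KO basal and 5.08 in WT basal. It was lower in WT 5iLAF against WT basal (log2 ratio -2.32) and in B3GALT5-KO 2iLAF against B3GALT5-KO basal (-2.06). Between the basal libraries its ratio was 0.22. B3GALT2 was listed at 0 except for 0.24 TPM in B3GALT5-KO 2iLAF.

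GlcNAc extension enzymes summed to 171 TPM in B3GALT5-KO 2iLAF, 131 in WT 5iLAF, 74.7 in WT 2iLAF, 98.3 in B3GALT5-KO basal and 98.7 in WT basal. B3GNT2, the main polylactosamine synthase, stood at 72.9 TPM in B3GALT5-KO 2iLAF, 60.8 in WT 5iLAF, 38.6 in WT 2iLAF, 30.6 in B3GALT5-KO basal and 30.8 in WT basal. It passed the size rule in B3GALT5-KO 2iLAF against B3GALT5-KO basal (log2 ratio 1.23) and lay just inside it in WT 5iLAF against WT basal (0.96, and 1.04 with either scaling). B3GNT7, which extends keratan sulfate chains, stood at 79.9 TPM in B3GALT5-KO 2iLAF, 53.9 in WT 5iLAF, 11.6 in WT 2iLAF, 50.8 in B3GALT5-KO basal and 53.2 in WT basal. WT 2iLAF was the single low library, with a log2 ratio of -2.11 against WT basal. B3GNT8, a partner of B3GNT2, stood at 3.75 TPM in B3GALT5-KO 2iLAF, 3.98 in WT 5iLAF, 3.70 in WT 2iLAF, 0.84 in B3GALT5-KO basal and 0.81 in WT basal. It was higher outside basal medium in each genotype (log2 ratios 1.37 to 1.46). B3GNT9 stood at 6.04 TPM in B3GALT5-KO 2iLAF, 4.68 in WT 5iLAF, 12.4 in WT 2iLAF, 7.89 in B3GALT5-KO basal and 5.47 in WT basal, with WT 2iLAF the highest. B3GNT3, which extends core 1, stood at 0.08 TPM in B3GALT5-KO 2iLAF, 0.18 in WT 5iLAF, 1.41 in WT 2iLAF, 1.28 in B3GALT5-KO basal and 1.13 in WT basal, low in both libraries labelled naive. B3GNT4 lay between 1.09 and 2.05 TPM. B3GNT5, which starts the lacto-series glycolipids, stayed between 4.99 and 6.59 TPM.

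**Figure D3:**
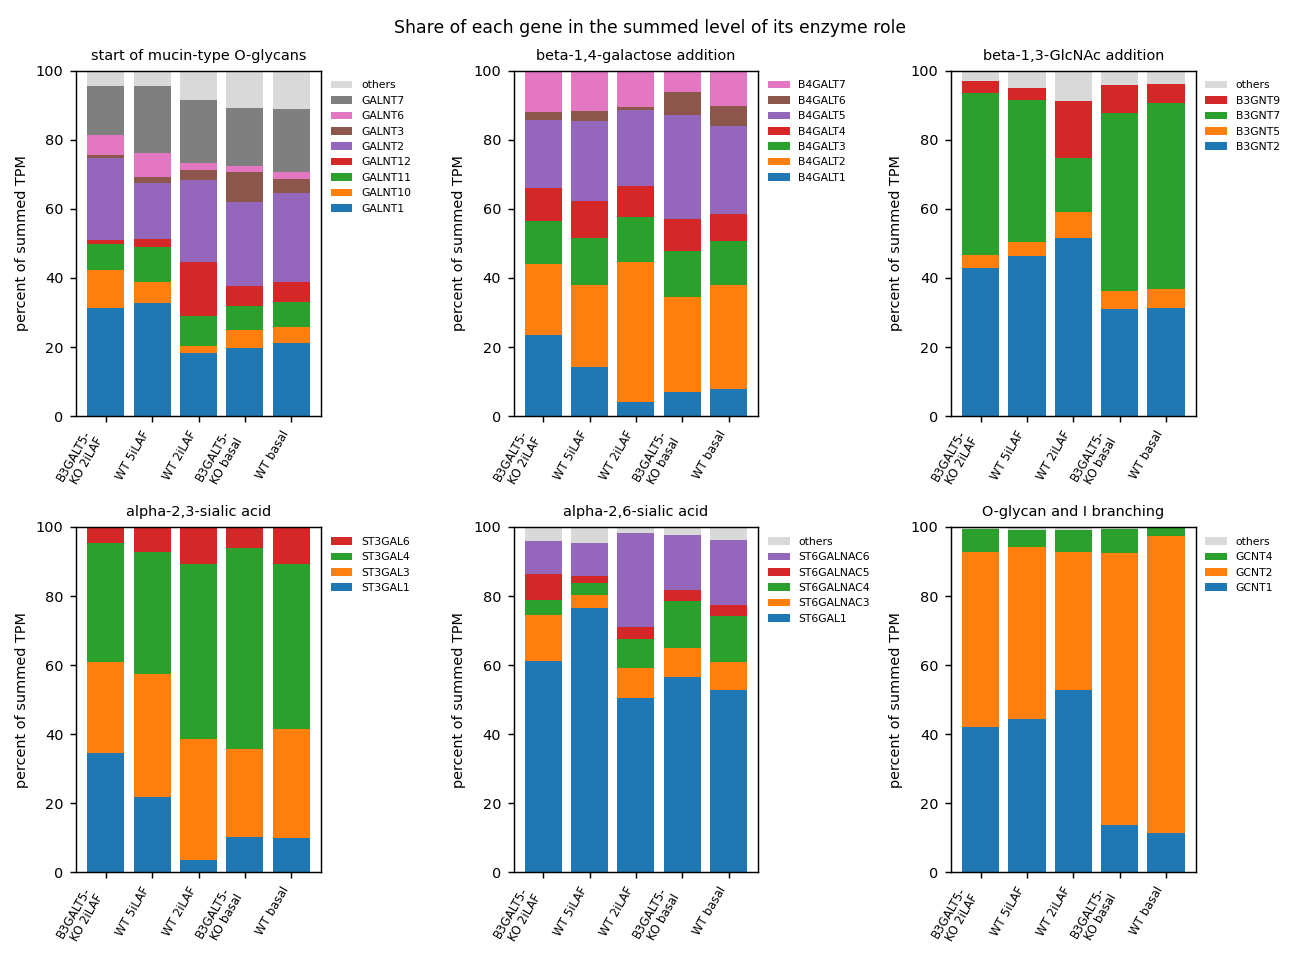
Percent of the summed TPM of 6 enzyme roles taken by each member (stacked segments) in each library (1 bar per library), with members under 5% in every library pooled as others. Within the O-glycan initiating group GALNT12 takes 1.41% in B3GALT5-KO 2iLAF and 15.4% in WT 2iLAF, and GCNT1 takes 42.2% to 52.7% of the branching group outside basal medium against 13.8% and 11.4% in B3GALT5-KO basal and WT basal.

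Among the O-glycan and I branching enzymes, GCNT1 and GCNT4 passed the size rule in at least 1 comparison and GCNT2 in none. GCNT1, which makes the core 2 branch, stood at 23.5 TPM in B3GALT5-KO 2iLAF, 30.9 in WT 5iLAF, 25.0 in WT 2iLAF, 7.79 in B3GALT5-KO basal and 4.07 in WT basal. All 3 libraries outside basal medium exceeded both basal libraries, with log2 ratios of 2.36 in WT 2iLAF and 2.65 in WT 5iLAF, each against WT basal, and 1.48 in B3GALT5-KO 2iLAF against B3GALT5-KO basal. GCNT4 was at 3.74 TPM in B3GALT5-KO 2iLAF, 3.25 in WT 5iLAF, 2.93 in WT 2iLAF, 3.84 in B3GALT5-KO basal and 0.74 in WT basal, so WT basal was its single low library. GCNT2, which makes the I branch of lactosamine chains, stood at 28.1 TPM in B3GALT5-KO 2iLAF, 34.6 in WT 5iLAF, 19.0 in WT 2iLAF, 44.3 in B3GALT5-KO basal and 30.6 in WT basal, and passed the size rule in no comparison.

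ST3GAL1, which caps core 1 with sialic acid and competes with GCNT1 for that acceptor, stood at 18.4 TPM in B3GALT5-KO 2iLAF, 10.5 in WT 5iLAF, 1.13 in WT 2iLAF, 4.62 in B3GALT5-KO basal and 3.37 in WT basal. Levels of GCNT1 were 1.28 times those of ST3GAL1 in B3GALT5-KO 2iLAF, 2.94 times in WT 5iLAF, 22.1 times in WT 2iLAF, 1.69 times in B3GALT5-KO basal and 1.21 times in WT basal. The high ratio in WT 2iLAF thus joined a high GCNT1 to the lowest ST3GAL1 of the 5 libraries, a value near the filter of 1 TPM. ST3GAL2, which can also cap core 1 and was set aside by name, exceeded ST3GAL1 in every library. It stood at 15.5 TPM in WT 2iLAF, so these ratios do not cover all core 1 capping enzymes.

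The 9 MGAT enzymes, which branch N-glycans except as stated, summed to between 176 and 209 TPM, and of the 8 tested MGAT2, MGAT3, MGAT4C and MGAT5B passed the size rule in at least 1 comparison. MGAT1, which opens the way to hybrid and complex chains, stood at 63.9 TPM in B3GALT5-KO 2iLAF, 54.7 in WT 5iLAF, 66.1 in WT 2iLAF, 60.5 in B3GALT5-KO basal and 63.7 in WT basal. MGAT4B, which adds a beta-1,4 branch, stood at 81.2 TPM in B3GALT5-KO 2iLAF, 82.1 in WT 5iLAF, 61.2 in WT 2iLAF, 67.2 in B3GALT5-KO basal and 70.1 in WT basal. Both spanned less than 1.5-fold. MGAT2, which starts the second antenna, stood at 35.8 TPM in B3GALT5-KO 2iLAF, 29.2 in WT 5iLAF, 14.8 in WT 2iLAF, 21.5 in B3GALT5-KO basal and 20.8 in WT basal, past the size rule in B3GALT5-KO 2iLAF against WT 2iLAF (log2 ratio 1.22). MGAT3, whose bisecting GlcNAc blocks further branching, stood at 6.57 TPM in B3GALT5-KO 2iLAF, 3.46 in WT 5iLAF, 9.64 in WT 2iLAF, 10.5 in B3GALT5-KO basal and 9.26 in WT basal, lower in WT 5iLAF against WT basal (-1.20). MGAT5, which adds the beta-1,6 branch, stood at 13.1 TPM in B3GALT5-KO 2iLAF, 11.4 in WT 5iLAF, 13.2 in WT 2iLAF, 20.0 in B3GALT5-KO basal and 15.0 in WT basal, inside the size rule throughout. MGAT5B, which branches O-mannose glycans, stood at 2.29 TPM in B3GALT5-KO 2iLAF, 4.08 in WT 5iLAF, 8.98 in WT 2iLAF, 5.62 in B3GALT5-KO basal and 8.58 in WT basal. It was lower in B3GALT5-KO 2iLAF against B3GALT5-KO basal (-1.01, and -0.99 with either scaling) and against WT 2iLAF (-1.60). MGAT4C stood at 3.52 TPM in B3GALT5-KO 2iLAF, 2.97 in WT 5iLAF, 1.03 in WT 2iLAF, 1.94 in B3GALT5-KO basal and 1.94 in WT basal, past the size rule in B3GALT5-KO 2iLAF against WT 2iLAF (1.15). MGAT4A lay between 1.01 and 2.29 TPM.

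The GalNAc-capping enzymes moved unequally. B4GALNT4, which makes LacdiNAc, stood at 5.93 TPM in B3GALT5-KO 2iLAF, 8.51 in WT 5iLAF, 38.6 in WT 2iLAF, 29.9 in B3GALT5-KO basal and 38.8 in WT basal. Both libraries labelled naive were low, with log2 ratios of -2.07 in WT 5iLAF against WT basal and -2.16 in B3GALT5-KO 2iLAF against B3GALT5-KO basal, while WT 2iLAF differed from WT basal by -0.01. B4GALNT3, which has the same activity, stood at 11.8 TPM in B3GALT5-KO 2iLAF, 19.1 in WT 5iLAF, 19.4 in WT 2iLAF, 11.8 in B3GALT5-KO basal and 13.1 in WT basal, and passed the size rule in no comparison.

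The 4 alpha-2,3-sialyltransferases among the members summed to 53.0 TPM in B3GALT5-KO 2iLAF, 48.0 in WT 5iLAF, 30.5 in WT 2iLAF, 44.5 in B3GALT5-KO basal and 33.8 in WT basal. ST3GAL2 and ST3GAL5, which cap gangliosides and related chains and were set aside by name, are not in it. ST3GAL2, which can also cap core 1, was at 39.6 TPM in B3GALT5-KO 2iLAF, 44.8 in WT 5iLAF, 15.5 in WT 2iLAF, 20.5 in B3GALT5-KO basal and 26.9 in WT basal. ST3GAL1 took 34.6% of the 4-member sum in B3GALT5-KO 2iLAF and 3.71% in WT 2iLAF. Its log2 ratio was 1.78 in B3GALT5-KO 2iLAF against B3GALT5-KO basal, 1.40 in WT 5iLAF against WT basal and -1.04 in WT 2iLAF against WT basal. The last of these ratios was -0.92 with either scaling, inside the size rule. ST3GAL3, ST3GAL4 and ST3GAL6, which sialylate lactosamine ends, passed the size rule in no comparison. ST3GAL4 stood at 18.2 TPM in B3GALT5-KO 2iLAF, 17.0 in WT 5iLAF, 15.4 in WT 2iLAF, 25.9 in B3GALT5-KO basal and 16.2 in WT basal. ST3GAL3 stood at 14.0 TPM in B3GALT5-KO 2iLAF, 17.1 in WT 5iLAF, 10.7 in WT 2iLAF, 11.2 in B3GALT5-KO basal and 10.6 in WT basal. ST3GAL6 lay between 2.47 and 3.63 TPM.

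Alpha-2,6-sialyltransferases held 1 abundant member that stayed within 1.5-fold and several that differed between libraries. ST6GAL1, which caps lactosamine on N-glycans, stood at 80.6 TPM in B3GALT5-KO 2iLAF, 100.02 in WT 5iLAF, 83.4 in WT 2iLAF, 113 in B3GALT5-KO basal and 92.8 in WT basal. ST6GAL2, its paralogue, stood at 0.59 TPM in B3GALT5-KO 2iLAF, 0.74 in WT 5iLAF, 2.26 in WT 2iLAF, 4.40 in B3GALT5-KO basal and 6.56 in WT basal, lower in WT 5iLAF and in WT 2iLAF against WT basal (log2 ratios -2.12 and -1.21). ST6GALNAC4, which adds sialic acid to already sialylated core 1, stood at 5.54 TPM in B3GALT5-KO 2iLAF, 4.83 in WT 5iLAF, 13.7 in WT 2iLAF, 27.4 in B3GALT5-KO basal and 23.3 in WT basal. ST6GALNAC6, which acts on sialylated glycolipids, stood at 12.5 TPM in B3GALT5-KO 2iLAF, 12.6 in WT 5iLAF, 45.1 in WT 2iLAF, 32.3 in B3GALT5-KO basal and 33.1 in WT basal. Both were low in the libraries labelled naive, with log2 ratios of -2.12 and -1.31 in B3GALT5-KO 2iLAF against B3GALT5-KO basal and -2.06 and -1.33 in WT 5iLAF against WT basal.

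ST6GALNAC2, which sialylates GalNAc of O-glycans, stood at 4.04 TPM in B3GALT5-KO 2iLAF, 4.80 in WT 5iLAF and 0.67 in WT 2iLAF, and was listed at 0 in both basal libraries. ST6GALNAC3 and ST6GALNAC5 separated the libraries labelled naive from each other. ST6GALNAC3 stood at 17.8 TPM in B3GALT5-KO 2iLAF, 4.91 in WT 5iLAF, 14.4 in WT 2iLAF, 17.0 in B3GALT5-KO basal and 14.3 in WT basal, and WT 5iLAF was its single low library. ST6GALNAC5, which acts on gangliosides, stood at 10.2 TPM in B3GALT5-KO 2iLAF, 2.46 in WT 5iLAF, 5.49 in WT 2iLAF, 6.07 in B3GALT5-KO basal and 5.76 in WT basal, with log2 ratios of 1.70 in B3GALT5-KO 2iLAF against WT 5iLAF and 0.67 in B3GALT5-KO 2iLAF against B3GALT5-KO basal.

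The 4 alpha-2,8-sialyltransferases among the members were low throughout, at 10.4 TPM in sum in B3GALT5-KO 2iLAF, 7.66 in WT 5iLAF, 4.10 in WT 2iLAF, 4.31 in B3GALT5-KO basal and 5.07 in WT basal. ST8SIA2 and ST8SIA4, which make polysialic acid on NCAM, were higher in the libraries labelled naive. ST8SIA2 stood at 6.68 TPM in B3GALT5-KO 2iLAF, 5.88 in WT 5iLAF, 2.20 in WT 2iLAF, 1.55 in B3GALT5-KO basal and 1.60 in WT basal. ST8SIA4 stood at 2.19 TPM in B3GALT5-KO 2iLAF, 1.51 in WT 5iLAF, 0.07 in WT 2iLAF, 0.44 in B3GALT5-KO basal and 0.21 in WT basal. For both genes WT 2iLAF stayed near the basal libraries. ST8SIA3 went the other way, at 0.07 TPM in B3GALT5-KO 2iLAF, 0.09 in WT 5iLAF, 1.28 in WT 2iLAF, 1.23 in B3GALT5-KO basal and 2.30 in WT basal. ST8SIA6 stood at 1.49 TPM in B3GALT5-KO 2iLAF, 0.18 in WT 5iLAF, 0.55 in WT 2iLAF, 1.09 in B3GALT5-KO basal and 0.96 in WT basal, so that WT 5iLAF was its lowest library and B3GALT5-KO 2iLAF its highest.

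Of the fucosyltransferases, FUT8, FUT9 and POFUT1 passed the size rule. FUT8, which adds core fucose to N-glycans, stood at 24.7 TPM in B3GALT5-KO 2iLAF, 30.3 in WT 5iLAF, 16.8 in WT 2iLAF, 8.67 in B3GALT5-KO basal and 11.6 in WT basal. It was higher in WT 5iLAF against WT basal (log2 ratio 1.32) and in B3GALT5-KO 2iLAF against B3GALT5-KO basal (1.41), while WT 2iLAF against WT basal gave 0.50. FUT9, which makes Lewis x, stood at 0.01 TPM in B3GALT5-KO 2iLAF, 0.04 in WT 5iLAF, 0.93 in WT 2iLAF, 2.95 in B3GALT5-KO basal and 2.17 in WT basal. FUT4, the other Lewis x enzyme measured above 1 TPM, stood at 5.67 TPM in B3GALT5-KO 2iLAF, 4.58 in WT 5iLAF, 2.34 in WT 2iLAF, 3.99 in B3GALT5-KO basal and 4.13 in WT basal, so the fucosyltransferase of that antigen with the higher level was FUT4 in every library. FUT3, FUT5 and FUT6, near-identical Lewis enzymes whose single values are uncertain, stayed at or below 0.25 TPM. FUT10 stood at 6.73 TPM in B3GALT5-KO 2iLAF, 7.37 in WT 5iLAF, 10.4 in WT 2iLAF, 10.9 in B3GALT5-KO basal and 8.67 in WT basal. FUT11 stood at 10.7 TPM in B3GALT5-KO 2iLAF, 8.50 in WT 5iLAF, 5.13 in WT 2iLAF, 6.58 in B3GALT5-KO basal and 7.69 in WT basal. Neither passed the size rule in any comparison. POFUT1, which adds O-fucose to the EGF repeats of Notch, stood at 47.1 TPM in B3GALT5-KO 2iLAF, 30.9 in WT 5iLAF, 22.0 in WT 2iLAF, 21.5 in B3GALT5-KO basal and 20.7 in WT basal. POFUT2, which modifies thrombospondin repeats, stood at 52.2 TPM in B3GALT5-KO 2iLAF, 33.5 in WT 5iLAF, 32.1 in WT 2iLAF, 33.8 in B3GALT5-KO basal and 30.5 in WT basal. POFUT1 passed the size rule in B3GALT5-KO 2iLAF against B3GALT5-KO basal (log2 ratio 1.09, and 0.99 with FPKM) and against WT 2iLAF (1.06, and 0.98 with either scaling and 0.91 with FPKM), and POFUT2 in none.

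The medium change from basal to 2iLAF can be set side by side in the 2 genotypes, since the comparisons share no library. The 2iLAF libraries differ in labelled state as well, so genotype and state cannot be told apart here. Of the 5 members higher in WT 2iLAF against WT basal, 2 (40%) were among the 14 higher in B3GALT5-KO 2iLAF against B3GALT5-KO basal (14.3% of those 14), namely B3GNT8 and GCNT1. Of the 6 lower in WT, 3 (50%) were among the 14 lower in B3GALT5-KO (21.4%), namely B4GALT6, GALNT14 and ST6GAL2. Over all tested genes the matching shares were 41.5% and 12.3% on the higher side, and 37.5% and 22.2% on the lower side. Opposite calls were made for 3 of 66 members (4.55%), GALNT10, ST3GAL1 and GALNT12, and for 190 of all tested genes (1.21%). B4GALT1 (log2 ratios 1.83 in B3GALT5-KO and -0.90 in WT) and B3GNT7 (0.64 and -2.11) had opposite signs with only 1 ratio past the size rule. With a pseudocount of 5 no member had opposite calls, the WT ratio of ST3GAL1 was inside the size rule with either scaling and with FPKM, and with a size rule of 1.5-fold there were 6. WT 5iLAF against WT basal matched the knockout change more widely. Of its 9 higher members 8 (88.9%) were among the 14 higher in B3GALT5-KO (57.1%), and of its 14 lower members 11 were among the 14 lower (78.6% of each). Over all tested genes the shares for these lists were 82.3% and 55.7% on the higher side, and 72.2% and 69.4% on the lower side.

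**Figure D4:**
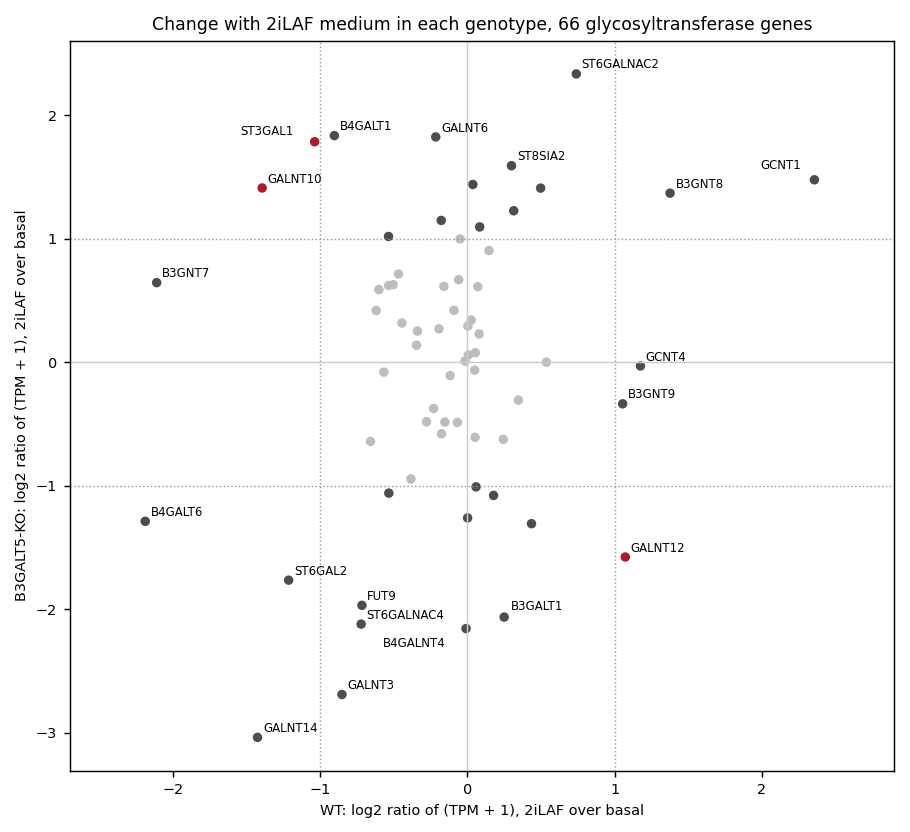
Log2 ratio of 2iLAF over basal medium on the (TPM + 1) scale for the 66 tested members, in B3GALT5-KO cells (vertical axis) and WT cells (horizontal axis), with 1 library per genotype and medium. Dotted lines mark log2 ratios of 1 and -1, dark grey points pass the size rule in at least 1 genotype, and red points (ST3GAL1, GALNT10 and GALNT12) pass it in opposite directions.

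Other genes of the pathway were followed as a list of 47, covering N-glycan trimming, core 1, Notch glycan extension, sugar supply and transport, sialidases, fucosidases and glycan sulfotransferases, of which 45 reached 1 TPM. In B3GALT5-KO 2iLAF against B3GALT5-KO basal 6 of the 45 passed the size rule upward and 10 downward, where 15.9% and 11.8% of all genes did. In WT 5iLAF against WT basal 2 were higher and 7 lower (10.7% and 11.4% of all genes), and in WT 2iLAF against WT basal 1 was higher and 4 lower (4.73% and 7.02%). In B3GALT5-KO 2iLAF against WT 2iLAF 8 were higher and 5 lower (16.6% and 10.8%), and against WT 5iLAF 1 was higher and 0 lower (4.9% and 1.03%). Between the basal libraries 0 passed in either direction (0.704% and 1.05%). LFNG, the fringe enzyme that extends O-fucose on Notch, stood at 3.45 TPM in B3GALT5-KO 2iLAF, 4.32 in WT 5iLAF, 50.6 in WT 2iLAF, 10.6 in B3GALT5-KO basal and 19.9 in WT basal, with WT 2iLAF high and both libraries labelled naive low. C1GALT1, which makes core 1, stood at 22.2 TPM in B3GALT5-KO 2iLAF, 23.5 in WT 5iLAF, 19.3 in WT 2iLAF, 32.2 in B3GALT5-KO basal and 26.1 in WT basal, inside the size rule throughout. CMAS, which makes CMP-sialic acid, the donor of every sialyltransferase above, stood at 44.2 TPM in B3GALT5-KO 2iLAF, 50.8 in WT 5iLAF, 40.7 in WT 2iLAF, 100.1 in B3GALT5-KO basal and 100.5 in WT basal, so both basal libraries exceeded the other 3. GMDS, which supplies GDP-fucose, stood at 19.2 TPM in B3GALT5-KO 2iLAF, 22.1 in WT 5iLAF, 32.8 in WT 2iLAF, 52.6 in B3GALT5-KO basal and 44.3 in WT basal. MAN1A1, a mannosidase that trims N-glycans before MGAT1 acts, stood at 19.9 TPM in B3GALT5-KO 2iLAF, 7.30 in WT 5iLAF, 1.90 in WT 2iLAF, 3.44 in B3GALT5-KO basal and 4.02 in WT basal, and was the 1 pathway gene past the size rule between the libraries labelled naive. Among sulfotransferases, GAL3ST3 stood at 0.32 TPM in B3GALT5-KO 2iLAF, 0.36 in WT 5iLAF, 7.31 in WT 2iLAF, 8.73 in B3GALT5-KO basal and 8.71 in WT basal, and CHST8, which sulfates LacdiNAc, at 1.19 TPM in B3GALT5-KO 2iLAF, 1.97 in WT 5iLAF, 6.01 in WT 2iLAF, 13.3 in B3GALT5-KO basal and 11.0 in WT basal. GAL3ST3 and CHST8 were thus lowest in the same 2 libraries as B4GALNT4, which makes the acceptor of CHST8. Of all tested genes, 26.9% stood below the other 3 libraries in both libraries labelled naive. CHST9, another sulfotransferase of the list, stood at 1.38 TPM in B3GALT5-KO 2iLAF and 1.29 in WT 5iLAF, its lowest values. Its level was 2.92 TPM in WT 2iLAF, 7.39 in B3GALT5-KO basal and 9.11 in WT basal. CHST9 was thus also lower in WT 2iLAF than in WT basal, where B4GALNT4 was not. B4GALNT3, which has the activity of B4GALNT4, passed the size rule in no comparison. A link between the levels of these genes was not tested. NEU1, the lysosomal sialidase, stood at 105 TPM in B3GALT5-KO 2iLAF, 76.8 in WT 5iLAF, 46.6 in WT 2iLAF, 44.6 in B3GALT5-KO basal and 41.1 in WT basal, higher in B3GALT5-KO 2iLAF than in B3GALT5-KO basal and WT 2iLAF by the size rule.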

How the data were processed

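Poly(A) RNA was sequenced from TruSeq stranded libraries, per the labels' protocols. The submitters' processing notes name Trimmomatic 0.39, Bowtie2 2.3.4.1, RSEM 1.2.28 and hg19 as the build. Which annotation and counting strand were used is not stated there, so a gene and an antisense partner may share reads. The authors deposited 1 table of TPM and FPKM per gene and library, per the file headers. TPM summed to about 1000000 per library, and 13729 to 14156 genes reached 1 TPM. No counts are given, FPKM steps of whole reads were not found (at most 6.66% of low genes shared a ratio), and no depth or interval is stated. RSEM divides reads shared by similar genes by an estimate.

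Members, enzyme roles, the pathway list and marker lists were chosen with earlier results of these data known. Any member could be named, with all 5 values for those reaching 10 TPM in a library or passing the size rule and ranges for the others; pathway genes named pass the size rule, except C1GALT1, chosen after its values were seen. Genes reaching 1 TPM in at least 1 library were compared as log2((TPM + 1)/(TPM + 1)), which understates ratios of low genes, over the whole table. A size rule of log2 1 replaced a test, since each group has 1 library. The calculation was tested on simulated data. Alternatives were pseudocounts of 0.1 and 5, no filter, a 5 TPM filter, median-ratio and trimmed-mean scaling, FPKM, and size rules of 1.5-fold and 4-fold. Python 3.11.15, numpy 2.4.6, pandas 2.3.3 and matplotlib 3.10.9 were used. Promoter windows came from RefSeq (GRCh38.p14), and no coordinates were joined to the hg19 values.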

Additional observations from a re-analysis of the deposited data

Results flagged for a closer look

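The 3 members GALNT10, GALNT12 and ST3GAL1 were past the size rule in opposite directions when 2iLAF was compared with basal medium in each genotype. Over all 15761 tested genes, 190 (1.21%) were, beside 4.55% of the 66 members. With 1 library per genotype and medium, the difference between genotypes was not tested. The 2iLAF libraries also differ in labelled state and in marker sums, so genotype and state cannot be told apart. ST3GAL1 had a log2 ratio of 1.78 in B3GALT5-KO cells and -1.04 in WT cells, a difference of 2.82. GALNT10 had 1.41 in B3GALT5-KO cells and -1.39 in WT cells, a difference of 2.80. GALNT12 had -1.58 in B3GALT5-KO cells and 1.07 in WT cells, a difference of -2.65. With a pseudocount of 5 none of the 3 is past the size rule in both genotypes, and the WT ratio of ST3GAL1 was -0.92 with median-ratio or trimmed-mean scaling and -0.74 with FPKM, inside the size rule.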

How the results depend on the processing

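No paired analysis was possible because each group holds 1 library, and for the same reason no library could be left out. Counts are given as higher and lower members. With a pseudocount of 5 they were 0 higher in B3GALT5-KO basal against WT basal, 1 and 2 in WT 2iLAF against WT basal, 3 and 6 in WT 5iLAF against WT basal, 7 and 6 in B3GALT5-KO 2iLAF against B3GALT5-KO basal, and 7 and 3 in B3GALT5-KO 2iLAF against WT 2iLAF. A pseudocount of 0.1 gave 9 higher in B3GALT5-KO 2iLAF against WT 5iLAF. With a 5 TPM filter the higher counts were 1 in B3GALT5-KO basal, 3 in WT 2iLAF and 5 in WT 5iLAF, each against WT basal. FPKM gave 9 higher in B3GALT5-KO 2iLAF against B3GALT5-KO basal and 8 against WT 2iLAF. A size rule of 1.5-fold gave 4 higher in B3GALT5-KO basal and 13 lower in WT 2iLAF, each against WT basal, 24 higher in B3GALT5-KO 2iLAF against B3GALT5-KO basal, 23 higher against WT 2iLAF, and 13 and 2 against WT 5iLAF. A size rule of 4-fold gave 0 higher in B3GALT5-KO basal, 1 and 2 in WT 2iLAF, and 2 and 6 in WT 5iLAF, each against WT basal. It also gave 1 and 5 in B3GALT5-KO 2iLAF against B3GALT5-KO basal, 4 and 3 against WT 2iLAF, and 0 higher against WT 5iLAF. Members with opposite medium changes numbered 0 with a pseudocount of 5 and 6 with the 1.5-fold rule. The log2 ratio of the summed O-glycan and I branching enzymes in WT 5iLAF against WT basal was 0.97 and, with median-ratio scaling, 1.06. The cause of these moves was not tested. The other 77 of 108 member counts stayed within 1.5 times their value. Of 1770 single-member ratios, 1657 kept their side of the size rule, 89 fell inside it, 24 moved past it, and no called ratio changed sign. Low members cannot be judged further, since depth is unknown.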
